A study of Vitis vinifera with 3 samples.

Results

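VvmiR396 is a conserved grapevine microRNA family with 4 listed members, VvmiR396a to VvmiR396d, and its short 5′ tags were followed in berries of the grape cultivar ‘Wink’ (Vitis vinifera) at 3 stages. A tag is a distinct short RNA sequence with its read count. A member tag was 14 to 17 nt long and was either identical to the 5′ end of VvmiR396a to VvmiR396d in the list of known grapevine microRNAs (VvmiRNAs) of the study, or differed from it only by G in place of A at position 7, counted from 1 at the 5′ end. This difference is written A7G. The tag with the listed base is called the A form and the tag with A7G the G form. The rule found 7 distinct tags of the 41342 in the series, with 1373 reads of the G form and 188 reads of the A form among 148979 reads in all.

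Berries had been sampled at 5 days after flowering (young berry, YB), 45 days (stone-hardening berry, SB) and 90 days (mature berry, MB). The study's methods give the vines as 5 years old and do not state the age separately for the YB and MB libraries. The labels name no treatment, genotype or other factor beside the time point. Each stage had 1 library, so no difference between stages has a replicate check, and a test on reads compares these libraries and not the stages. By the study’s text, the YB and MB libraries had been made for separate work, so stage and library preparation cannot be told apart. The member tags numbered 7 of the 16519 distinct tags at YB, 5 of 14883 at SB and 4 of 15838 at MB.

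In plants a mature microRNA is loaded into an ARGONAUTE protein and guides it to messenger RNA with a nearly complementary site, which is then cleaved or less translated. The main conserved targets of miR396 are the GROWTH-REGULATING FACTOR (GRF) genes, transcription factors that act with GRF-INTERACTING FACTOR coactivators to promote cell proliferation and organ growth. In Arabidopsis, high miR396 lowers GRF levels and limits cell number, and the TCP4 transcription factor, itself a target of miR319, activates miR396. Position 7 lies in the 5′ region of the microRNA, the seed, whose pairing weighs heavily in target recognition. In Arabidopsis the pairing of miR396 with most GRF transcripts leaves a bulged base opposite this 5′ region. No GRF transcript was measured here.

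The listed sequences are shown because the 4 members share every base that a 17 nt tag can hold, and the 17 nt tags are shown because the A7G base separates the forms. Capitals mark the seed, positions 2 to 8, in the listed sequences, and position 7 in the tags.
VvmiR396a: tTCCACAGctttcttgaacta
VvmiR396b: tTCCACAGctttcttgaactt
VvmiR396c and VvmiR396d: tTCCACAGctttcttgaa
G form, 17 nt: ttccacGgctttcttga
A form, 17 nt: ttccacAgctttcttga
VvmiR396a and VvmiR396b were identical at 20 of 21 bases and differed at position 21, the last one. VvmiR396c and VvmiR396d were listed with 18 bases, all of them shared with the other members. A tag of 14 to 17 nt therefore cannot be given to 1 member, and all counts are those of the family. The list held 161 VvmiRNAs with 96 distinct sequences. The seed TCCACAG of the A form occurred in 4 of them, all VvmiR396, while the seed TCCACGG of the G form occurred in 0. The 5′ end of the G form likewise matched 0 of the 161 listed VvmiRNAs. The RefSeq gene table of assembly ASM3070453v1 names MIR396A, MIR396B, MIR396C and MIR396D, so 4 of 4 members matched a gene, and in it MIR396B and MIR396D are direct neighbours. Its coordinates are not given, because no build is named for the tags, and the genomic base behind position 7 was not analysed here.

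Deposited reads numbered 39791 (YB), 33228 (SB) and 75960 (MB), all of 3 to 17 nt. These are short reads only and not the depth of the libraries. A total of 3 reads, taken here as the floor of detection, was 7.54 (YB), 9.03 (SB) and 3.95 (MB) per 100000 deposited reads. Tags that share 13 nt with either of the 2 most abundant tags took 57.2% of the MB reads, against 16.6% of the SB reads and 17.05% of the YB reads, and levels are also given without them. Intervals and floors cover counting error only.

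The G form outnumbered the A form in the YB and SB libraries, and both forms had similar low numbers at MB. In the YB library the G form had 677 reads at 17 nt, 143 at 16 nt, 5 at 15 nt and 1 at 14 nt, and the A form had 63, 11, 2 and 0 reads at the same lengths. In the SB library the G form had 428 reads at 17 nt, 108 at 16 nt and 0 at the shorter lengths, and the A form had 84 at 17 nt, 13 at 16 nt and 2 at 15 nt. In the MB library the G form had 10 reads at 17 nt and 1 at 16 nt, and the A form had 12 at 17 nt and 1 at 15 nt. The sums were 826 G form and 76 A form reads at YB, 536 and 99 at SB, and 11 and 13 at MB. Position 7 was read as C or T in 0 reads of each library. The plot of reads by length shows the same order of lengths in both forms at YB and SB.

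**Figure D1:**
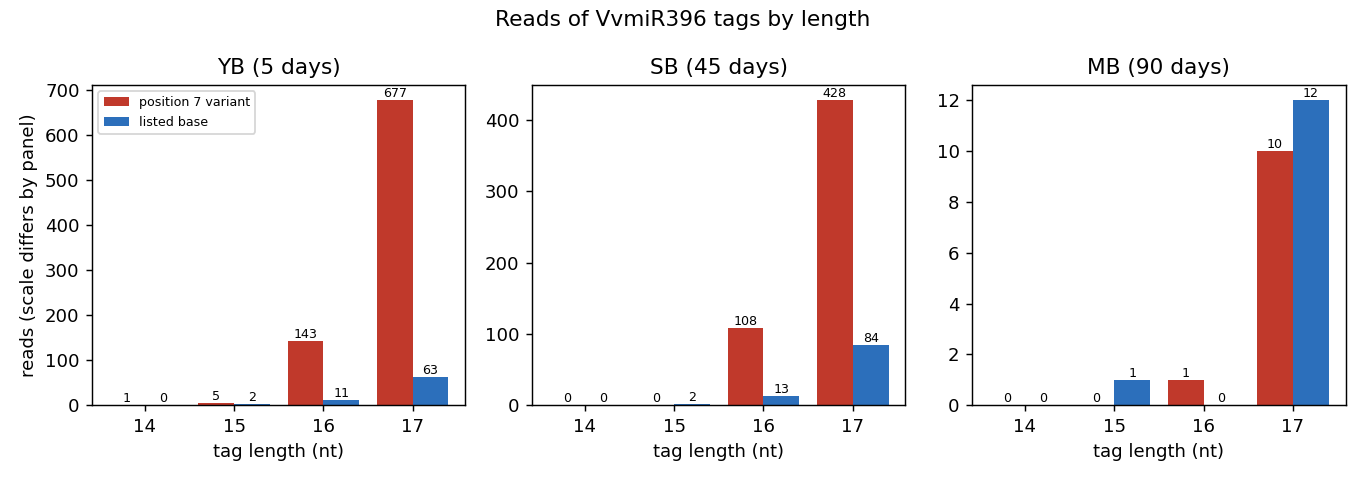
Reads of VvmiR396 tags (y axis, a scale of its own in each panel) by tag length in nt (x axis) in the YB, SB and MB libraries, with bars for the position 7 variant (G form) and the listed base (A form) and the read number above each bar. At 17 nt the variant had 677 reads at YB and 428 at SB, and 10 at MB, where the listed base had 12.

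Most family reads carried A7G at YB and SB, while at MB its reads were close in number to those of the listed base. The A7G share of the family was 91.6% at YB (95% Wilson interval 89.6% to 93.2%, 902 reads), 84.4% at SB (81.4% to 87.0%, 635 reads) and 45.8% at MB (27.9% to 64.9%, 24 reads). The difference of SB minus YB was -7.16 points (log2 odds ratio -1.005, 95% interval -1.48 to -0.53, two-sided Fisher exact test, Benjamini-Hochberg adjusted p = 2.47e-05 over 3 pairs of libraries). For MB minus SB it was -38.6 points, with a log2 odds ratio of -2.67 (95% interval -4.02 to -1.35) and an adjusted p of 2.47e-05 in the same exact test. For MB minus YB it was -45.7 points, with a log2 odds ratio of -3.67 (95% interval -5.03 to -2.35) and an adjusted exact p of 7.98e-08. The 3 intervals of the shares did not overlap, although the MB value rests on 24 reads. These shares need no library total. With each distinct tag counted once, the MB share was 10 points above the SB share, at an adjusted exact p of 1. This count only records which lengths of each form were seen. With 7 tags at YB, 5 at SB and 4 at MB, it cannot tell whether the read shares hold.

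The share was also computed within single lengths and in tags that the rule leaves out. At 17 nt, A7G made up 91.5% of YB reads (89.3% to 93.3%), 83.6% of SB reads (80.1% to 86.5%) and 45.5% of MB reads (26.9% to 65.3%). At 16 nt it was 92.9% at YB and 89.3% at SB, and MB had 1 read of this length. Tags of the family with a shifted start, a further substitution or an internal deletion do not belong to the members, and they carried G at position 7 in 33 of 38 reads at YB (86.8%, 72.7% to 94.2%) and in 23 of 27 reads at SB (85.2%, 67.5% to 94.1%). At MB this was 1 of 2 reads. This set was chosen after the data had been seen. Its intervals included the member share at YB and at SB, but the YB interval also included the SB member share, and the reverse. With 38 and 27 reads they are too wide to tell whether the shares of this set and of the members are alike.

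**Figure D2:**
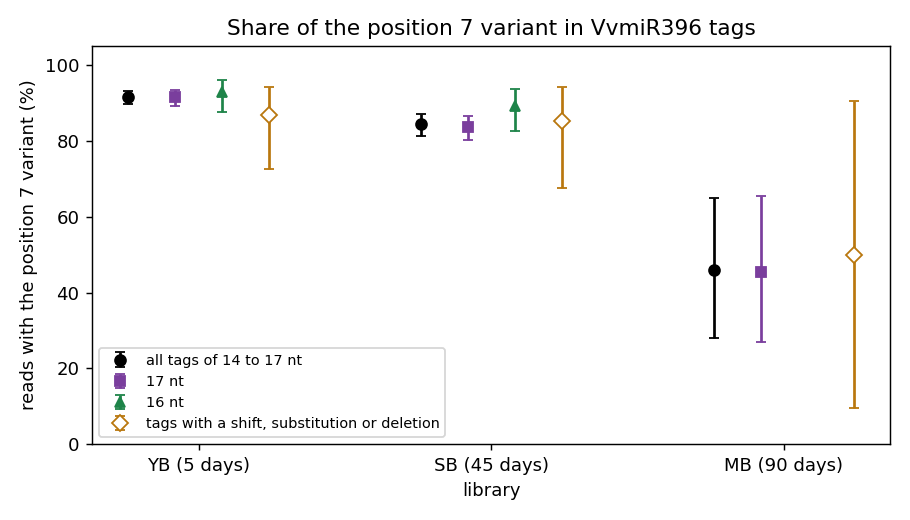
Percent of VvmiR396 reads with the position 7 variant (y axis) in the YB, SB and MB libraries (x axis), for all member tags, for 17 nt tags, for 16 nt tags (YB and SB only) and for family tags outside the rule, with 95% Wilson intervals as bars. The member share was 91.6% at YB, 84.4% at SB and 45.8% at MB, where the interval is widest.

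Other single-base differences were far rarer than A7G in the same tags. They were counted from position 3 to the base before the last, among reads with at most 1 difference from a form. The G form at YB had 8 types of difference with 11 of 837 reads (1.31%, 95% interval 0.735% to 2.34%), of which the most frequent was C4T with 3 reads (0.358%). At SB it had 7 types with 8 of 544 reads (1.47%), and the most frequent was C3T with 2 reads (0.368%). The A form had 3 such reads of 79 at YB (3.80%) and 0 of 99 at SB, and at MB the G form had 0 of 11 and the A form 0 of 13. The other A of the family within these positions, at position 5, was read as G in 0 reads of any library. A change of the last base alone was likewise found in 0 reads.

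The same count was made in the other listed VvmiRNA groups, a group being all VvmiRNAs with the same first 14 nt, with at least 50 identical reads in a library. The difference with the largest share was T7C at YB and SB in tags of VvmiR159c, a miRNA that targets GAMYB-like transcription factors, with 0.496% of YB reads and 1.70% of SB reads. A tag with this difference is identical to that of VvmiR319e, another listed VvmiRNA. VvmiR166b to VvmiR166h, which target class III HD-ZIP transcription factors, had C11T in 0.215% at YB, C11A in 0.410% at SB and C6T in 0.877% at MB, the last with 1 read. VvmiR3623 had G5A in 1.61% at MB, also 1 read. Differences from A to G in these groups had a highest share of 0.165% over 7 A positions at YB and of 0.142% over 7 at SB, and 0 reads over 6 at MB. Position 7 of VvmiR396 was the only position above 2% in these groups and libraries. With groups of at least 20 identical reads, the tag identical to VvmiR319e reached 17.3% beside VvmiR159c at MB.

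**Figure D3:**
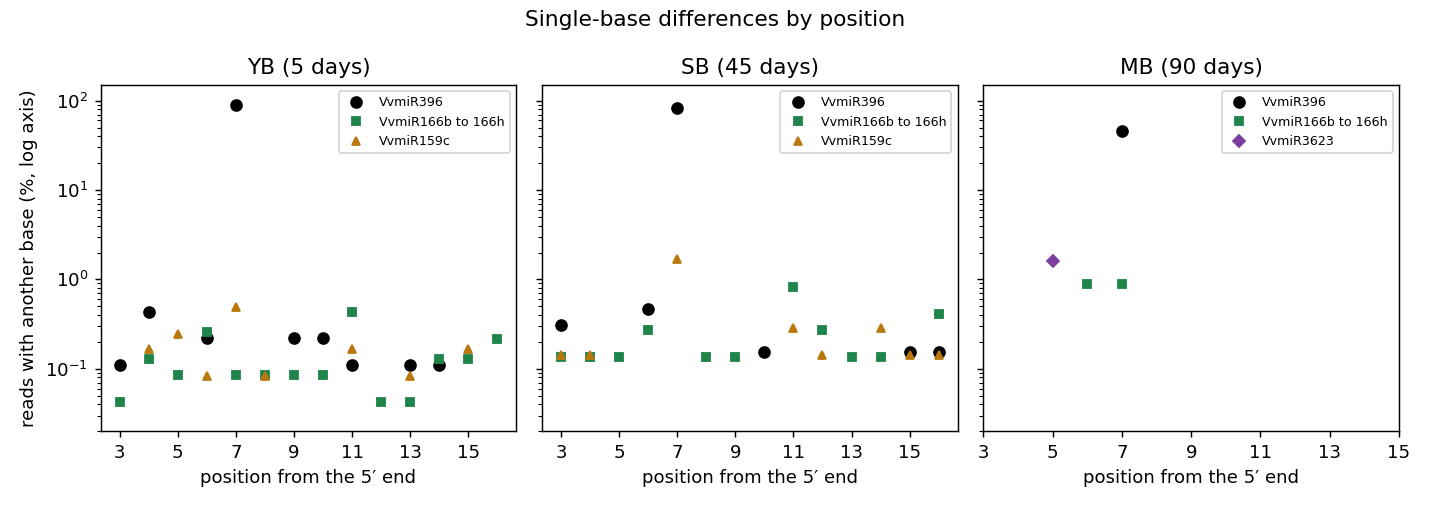
Percent of reads with another base than the listed one (y axis, log axis) by position from the 5′ end (x axis) for VvmiR396 and the other VvmiRNA groups with at least 50 identical reads in the YB, SB and MB libraries. Positions with 0 reads are not drawn, and position 7 of VvmiR396 stands above all other points in each panel.

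Both forms ended at 17 nt in most reads, and a difference between the forms was not detectable at this depth. Reads of 17 nt made up 82.0% of the G form and 82.9% of the A form at YB, 79.9% (76.2% to 83.0%) and 84.8% (76.5% to 90.6%) at SB, and 90.9% and 92.3% at MB. The G form was 5.00 points below the A form at SB (two-sided Fisher exact test, adjusted p = 0.814 over 3 libraries), and the adjusted exact p was 1 at YB and at MB. These differences were small beside their intervals, and their sign turned when 16 and 17 nt were set against 14 and 15 nt. The deposited lists stop at 17 nt, so the lengths of longer reads were not analysed here.

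The share of 17 nt tags in VvmiR396 differed from that in the other abundant groups, a comparison added after the data had been seen. The deposited lists stop at 17 nt, so this is the share at their upper limit and not a length pattern of the whole RNA. VvmiR396 tags were 17 nt long in 82.0% of YB reads, 80.6% of SB reads and 91.7% of MB reads. VvmiR159c tags were so in 47.6%, 47.5% and 41.9%, which left VvmiR396 34.5, 33.1 and 49.8 points higher (two-sided Fisher exact test, adjusted p over 7 comparisons of 2.29e-60, 4.24e-36 and 7.41e-05). Against VvmiR166b to VvmiR166h, with 92.7% at YB, 89.9% at SB and 49.1% at MB, the difference of VvmiR396 was -10.7 points at YB, -9.26 points at SB and 42.6 points at MB (adjusted exact p of 4.41e-17, 2.65e-06 and 7.73e-05). VvmiR3623 at MB had 17 nt in 6.56% of reads, 85.1 points below VvmiR396 (adjusted exact p = 5.03e-14). Reads of 1 library are not independent molecules of the tissue, and these p-values cover counting error only.

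**Figure D4:**
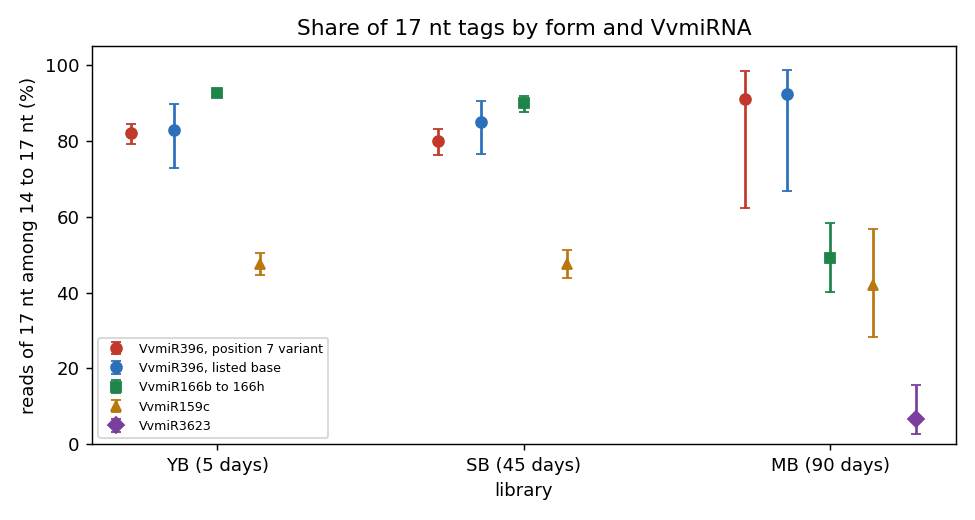
Percent of reads of 17 nt among those of 14 to 17 nt (y axis) in the YB, SB and MB libraries (x axis) for the position 7 variant and the listed base of VvmiR396 and for other VvmiRNA groups with enough reads, with 95% Wilson intervals as bars. The VvmiR396 forms lie at 82.0% and 82.9% at YB and at 90.9% and 92.3% at MB, where VvmiR3623 lies at 6.56%.

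The start of the tags was nearly fixed. Of the reads of at least 12 nt that lie within a VvmiR396 sequence and hold position 7, 904 of 912 (99.1%) started at the first base at YB, 635 of 644 (98.6%) at SB and 24 of 24 at MB. The few shifted reads numbered 7 of the G form and 1 of the A form at YB, and 6 and 3 at SB. Shorter 5′ tags of 8 to 13 nt had 1 read of each form at YB and 0 at SB and MB.

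Some tags began like VvmiR396 and lacked 1 to 5 bases further on, a class looked for after the data had been seen. The G form had 15 such reads in 10 tags at YB and 9 reads in 5 tags at SB, and the A form had 1 read in each of these libraries. At MB each form had 1 read. The following tags are shown because their 3′ bases reach position 21, the only position that tells members apart, with position 7 in capitals.
YB and SB, G form: ttccacGgcttgaactt
YB, A form: ttccacAgcttgaactg
MB, A form: ttccacAgcttgaactt
The G form tag ends like VvmiR396b and had 1 read at YB and 1 at SB. The A form tag at YB had 1 read and ends like the miRBase sequence of VvmiR396c and VvmiR396d, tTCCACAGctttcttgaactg, which the list of the study gives beside its own shorter one. The A form tag at MB had 1 read and ends like VvmiR396b. These counts are below the floor of 3 reads, so no share of A7G per member can be drawn from them. Per 1000 member reads, deletion tags of the G form numbered 18.2 at YB and 16.8 at SB, and those of the A form 13.2 and 10.1. At MB the single read of each form came to 90.9 for the G form and 76.9 for the A form. The same class had 7.87, 28.1 and 44.6 per 1000 reads at YB, SB and MB in VvmiR166b to VvmiR166h, with 0 reads at YB and SB in VvmiR159c and at MB in VvmiR3623.

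VvmiR396 tags were abundant in the YB and SB libraries and scarce at MB. Per 100000 deposited reads, the G form had 2076 in YB berries (95% Wilson interval 1940 to 2221), 1613 in SB berries (1483 to 1754) and 14.5 in MB berries (8.09 to 25.9). The A form had 191 in YB berries (153 to 239), 298 in SB berries (245 to 363) and 17.1 in MB berries (10.002 to 29.3). The G form was thus the higher form at YB and SB, the MB intervals of the forms overlapped, and the A form had its highest value at SB. Both forms together had 2267 at YB, 1911 at SB and 31.6 at MB. Among the VvmiRNA groups they ranked below VvmiR166b to VvmiR166h and VvmiR159c alone at YB and SB, and at MB below VvmiR3623 as well.

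A level was called changed where the log2 ratio reached 1 in either direction. Between SB and YB neither form was called, while 33.3% of the 6 listed VvmiRNA groups tested were called higher and 16.7% lower, VvmiR396 included among the 6. Those called higher were VvmiR319e, with 12 SB and 6 YB reads, and VvmiR3623*, with 11 and 6. Their 95% intervals reach both signs (-0.27 to 2.96 and -0.43 to 2.85). Of the 375 tags of 14 to 17 nt with at least 10 reads in the higher library, 23.7% were called higher and 23.2% lower. The log2 ratio of SB over YB was -0.36 for the G form (95% interval -0.53 to -0.21) and 0.64 for the A form (0.20 to 1.09), with adjusted p-values of 5.03e-05 and 0.0294 in two-sided Fisher exact tests. The forms therefore moved in opposite directions on this scale, and the SB over YB test of the A7G share, given before, is the test of that difference. When the levels were set relative to all 5′ tags of listed VvmiRNAs, the G form was at 0.58 and the A form at 1.59, which passes the threshold, so the direction for the G form and the call for the A form depend on the scale. With edgeR TMM factors the A form was at 0.40 and the G form at -0.60. With DESeq2 size factors they were at 0.20 and -0.80.

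Tags of both forms fell past the threshold in the MB library. The log2 ratio of MB over SB was -6.80 for the G form (95% interval -7.83 to -5.97), a 111-fold lower level, and -4.12 for the A form (-5.09 to -3.29), a 17.4-fold lower level. The adjusted p-values in the exact test were 3.63e-257 and 1.37e-36. Of the 8 listed groups tested, 75.0% were called lower in this comparison, as were 33.6% of the 544 tags of 14 to 17 nt. The median log2 ratio was -3.10 over the groups and 0.39 over the tags. Both forms together had the lowest value among the 8 groups, -5.92 (95% interval -6.60 to -5.36). This rank is not firm, because the interval of VvmiR159c at -5.18 (-5.69 to -4.77) overlaps it. VvmiR395a to VvmiR395m, with 1 MB read set to 3, had -4.00. The other groups count listed bases only, and the A form alone lay above VvmiR159c. For MB over YB the log2 ratio was -7.16 for the G form and -3.48 for the A form, or 143-fold and 11.2-fold lower levels, where 66.7% of 6 groups and 37.6% of 587 tags were called lower. The group median was -4.72 and the tag median was 0.80, with counts under 3 set to 3. Both forms together were lowest at -6.16 (95% interval -6.85 to -5.61). The interval of VvmiR159c at -5.73 (-6.24 to -5.33) overlaps it, so this rank is not firm either. VvmiR395a to VvmiR395m, with 1 MB read set to 3, had -4.16. The A form alone again lay above VvmiR159c.

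The extent of these falls depended on the scale. All listed VvmiRNA tags, with the A form but without the G form, took 3660 reads of YB, 1585 of SB and 298 of MB. Relative to them, the A form gave a log2 ratio of -0.52 for MB over SB and of 1.07 for MB over YB, so it was lower at MB than at SB without passing the threshold, and higher at MB than at YB past it, while the G form gave -3.20 and -2.61. Both forms made up 20.1% of the VvmiRNA tags (G form included) at YB, 29.9% at SB and 7.77% at MB. With the 2 abundant tag families left out of the totals, the log2 ratio of MB over SB was -5.84 for the G form and -3.16 for the A form, and that of MB over YB was -6.21 and -2.53. The part of the other MB tags in these levels was not tested.

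**Figure D5:**
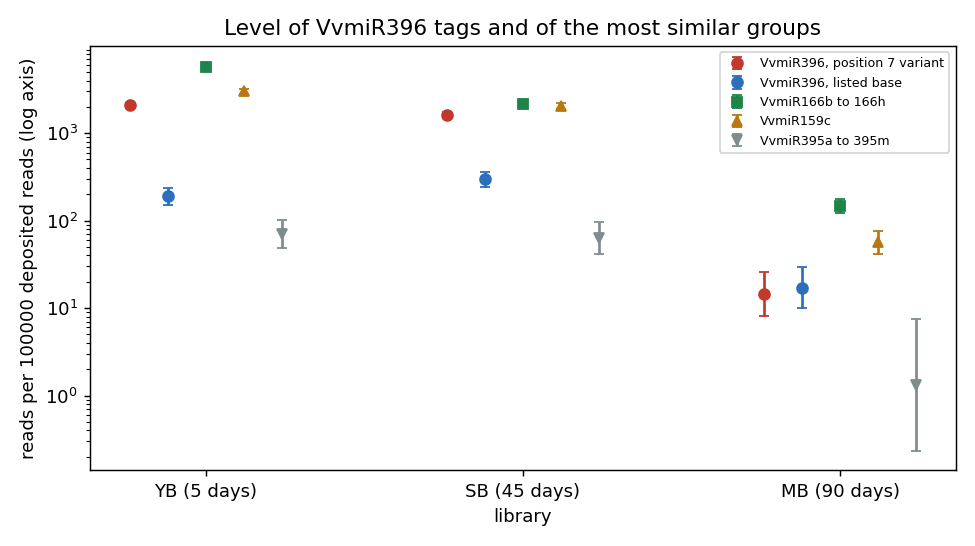
Reads per 100000 deposited reads (y axis, log axis) in the YB, SB and MB libraries (x axis) for the position 7 variant and the listed base of VvmiR396 and for the 3 VvmiRNA groups with the most similar profile, with 95% Wilson intervals as bars. The variant lies at 2076 at YB, 1613 at SB and 14.5 at MB, and the listed base at 191, 298 and 17.1.

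The groups with the profile most like VvmiR396 were found by the total variation distance, the share of a profile over the 3 libraries that must be moved to turn it into the other. VvmiR396 had 53.9% of its summed level at YB, 45.4% at SB and 0.751% at MB. VvmiR395a to VvmiR395m, which target genes of sulfate uptake and assimilation, were nearest at 1.68%, with 28, 21 and 1 reads at YB, SB and MB. VvmiR159c followed at 5.12% with 1192, 684 and 43 reads, and VvmiR166b to VvmiR166h at 18.7% with 2288, 712 and 112 reads. The profiles have 3 points each and share library totals, and the 1 read of VvmiR395 at MB is under the floor.

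Of 10 conserved families that act beside miR396 in organ growth, few had tags enough for a comparison. VvmiR159 had 1192 YB reads, 684 SB reads and 43 MB reads, and VvmiR166 had 2290, 714 and 117. VvmiR319, which targets TCP transcription factors, had 9, 14 and 9. VvmiR156, VvmiR164 and VvmiR167, which target SPL, NAC and ARF transcription factors, had at most 4 reads in any library, and VvmiR160, VvmiR172 and VvmiR390 had 0, while VvmiR393 is not in the list. Of the families with at least 10 reads in the higher library, 0 of 3 were called higher and 1 of 3 lower for SB over YB, 0 and 3 of 3 for MB over SB, and 0 and 2 of 2 for MB over YB. Over all listed groups, which include groups of these families, 16.7%, 75.0% and 66.7% were called lower in these comparisons. Over all tags of 14 to 17 nt, 23.2%, 33.6% and 37.6% were called lower. For SB over YB, 33.3% of the listed groups and 23.7% of the tags were called higher. Tags called higher numbered 146 of 544 for MB over SB and 243 of 587 for MB over YB. The median log2 ratios of the growth families with enough reads were -0.54, -3.80 and -5.47 in these comparisons. VvmiR319 had log2 ratios of 0.90 for SB over YB and -1.83 for MB over SB, beside -0.25 and -5.92 for VvmiR396 with both forms. Counts of 0 to 4 reads set no direction.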

How the data were processed

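Berry RNA was sequenced at 3 stages, with 1 library per stage named by the source label. For each library the authors deposited the raw read count of every distinct sequence with its length, unnormalized, after adapter trimming and collapsing. The software is not given in the sources used here. All sequences were 3 to 17 nt, below the size range that the study's methods cut from gels and kept, and the labels and methods name different platforms. The labels name both small RNA and degradome sequencing, and which of these made the deposited reads was not settled. The deposited reads numbered 39791 (YB), 33228 (SB) and 75960 (MB), a length class and not the library depth. A clean-read total is stated for SB alone, so levels are per 100000 deposited reads.

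Members were matched exactly to the first 14 to 17 nt of the study's listed sequences. Counts under 3 were set to 3 for ratios. The 95% intervals printed with log2 ratios of levels are those of the log2 odds ratio in the exact test, from the counts as read. Tests were two-sided Fisher exact tests with Benjamini-Hochberg adjustment (over 39 tested groups and forms for SB over YB, 33 for MB over SB and 36 for MB over YB), shares have 95% Wilson intervals, and the matching was tested on simulated data. Named VvmiRNAs are the members, growth families with at least 10 reads in a library, the 3 most similar profiles, and the largest difference of each other group with at least 50 reads. VvmiR3623 in the length comparison, the growth families with fewer reads and the tags with deletions were added after their values were seen, as were the tags outside the rule, the length comparisons with other groups and the complementary tags. Members and lists were chosen with earlier results of these data known. Alternatives were other lengths, scalings, filters and counting of distinct tags. Software was R 4.3.3 with DESeq2 1.42.0 (size factors) and edgeR 4.0.16 (TMM), and Python 3.11.15 with pandas 2.3.3, numpy 2.4.6, matplotlib 3.10.9 and scipy 1.17.1.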

Additional observations from a re-analysis of the deposited data

Results flagged for a closer look

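Reads complementary to the family were found that no comparison used. Tags with at least 11 bases in a row complementary to VvmiR396 had 7 reads in 5 tags at YB (17.6 per 100000 deposited reads) and 18 reads in 10 tags at SB (54.2), both above the floor of 3 reads, and 1 read at MB (1.32), which is under it. The base that faces position 7 was T, which pairs with the listed A, in 7 of 7 reads at YB, 17 of 18 at SB and 1 of 1 at MB. A complementary run of 11 bases nearly always includes position 7, so the search itself limited this base to T or C. The tags with most reads at SB and YB are shown because they carry this count, with the base facing position 7 in capitals.
SB, 4 reads: gctcaagaaagcT
SB, 3 reads, and YB, 2 reads: agttcaagaaagcT
SB, 3 reads, and YB, 2 reads: gttcaagaaagcT
The remaining read at SB had C, which pairs with G, in the tag caagaaagcCggagaag. The facing base alone does not assign a read to the A form or to the G form. The search was made after the data had been seen, the tags are too short to place, and the locus or molecule they came from was not tested.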

How the results depend on the processing

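Of 129 alternatives over 30 results, 109 left tested results with their direction and call, shares within their 95% interval and counts of groups within 1.5 times. With each distinct tag counted once, the A7G share was 57.1% at YB and 40% at SB, and the differences were -17.1 points for SB minus YB, 10 for MB minus SB and -7.14 for MB minus YB, at adjusted exact p of 1, since 4 to 7 tags enter. Scaled to all 5′ tags of listed VvmiRNAs, the log2 ratio of the A form was 1.59 for SB over YB, -0.52 for MB over SB and 1.07 for MB over YB, and SB over YB was 0.58 for the G form and 0.70 for both forms, because this total itself fell. For 16 and 17 nt against 14 and 15 nt, the G form was 1.91 points above the A form at YB, 2.02 at SB and 7.69 at MB (adjusted exact p of 0.211, 0.0723 and 1), and the cause was not tested. With groups of at least 20 identical reads, the largest difference in other groups was 3.45% at YB and 17.3% at MB, since more groups enter. The number of groups past the log2 threshold was 3 for SB over YB, and 1 with DESeq2 size factors, 5 with at least 1 read and 1 with at least 50 reads. For MB over SB it was 7, and 4 with at least 50 reads, and for MB over YB 5, and 11 with at least 1 read. No paired analysis was possible because each stage has 1 library. The A7G share at MB rests on 24 reads.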
